A study of Mus musculus and Rattus norvegicus with 24 samples.

Results

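Genes of the oligodendrocyte precursor and the signalling ligand gene Bmp4 were followed in the brains of mice and rats whose middle cerebral artery had been occluded permanently (pMCAO). The 8 members, chosen by gene symbol, were Pdgfra, Cspg4, Olig1, Olig2, Sox10, Gpr17, Neu4 and Bmp4. Each had 1 transcript cluster (the set of probes read out as one gene) annotated to it alone, so 8 of 22180 genes tested in mouse and 8 of 18166 in rat were members. The study placed a filament in the artery and left it there, a model of ischaemic stroke, and took a 3 by 3 mm piece of the penumbra, the zone around the core of the infarct. Groups were male C57BL/6 mice (8 to 10 weeks) at 2 h or 6 h after pMCAO, against sham-operated mice at the same times, and male Sprague-Dawley rats (8 to 12 weeks) at 2 h or 6 h after pMCAO, against sham-operated rats. The right artery was occluded in mice and the left in rats, and sham animals had the same surgery without occlusion. Every group held 3 animals with 1 whole-transcript array per animal, and the 24 arrays set the precision.

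Oligodendrocyte precursors are dividing glial cells of the adult brain that give rise to myelinating oligodendrocytes. They carry the receptor for platelet-derived growth factor A (Pdgfra) and the NG2 proteoglycan (Cspg4), and their identity rests on the transcription factors Olig1, Olig2 and Sox10. In mice, cells that leave the precursor state and commit to differentiation are known to turn on the receptor gene Gpr17, the sialidase gene Neu4 and Bmp4. Bone morphogenetic protein 4 (BMP4) signals through type I and type II receptors to SMAD proteins, which switch on the Id genes, and BMP signalling holds back oligodendrocyte maturation.

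Bmp4 was the member with a called change, so its promoter is shown. The sequence is from RefSeq (GRCm38.p6), chr14:46390670-46390919, minus strand, the 250 bases before the gene's start, 5′ to 3′. Capitals mark matches to the E-box CANNTG, a motif bound by helix-loop-helix factors such as the OLIG proteins.
Bmp4: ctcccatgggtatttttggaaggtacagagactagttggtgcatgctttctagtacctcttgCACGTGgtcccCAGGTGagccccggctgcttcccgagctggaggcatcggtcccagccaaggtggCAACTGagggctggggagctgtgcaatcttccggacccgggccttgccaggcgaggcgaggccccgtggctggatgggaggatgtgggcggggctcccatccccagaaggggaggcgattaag
The window held 3 E-boxes, whose first bases lie 188, 177 and 123 bases before the start, against a mean of 1.16 over 32851 mouse promoters of the same length, of which 66.2% held at least 1. The first of the 3 is CACGTG, found in 6.02% of promoters, and it contains ACGTG, the core of the hypoxia response element, on both strands. ACGTG on either strand occurred in 16.6% of promoters. Neither ACAATG, a motif of SOX factors found in 10.7% of promoters, nor GGCGCC, a GC-rich motif of SMAD-responsive elements found in 9.59%, occurred on either strand of these 250 bases. Of the 8 members, 5 had a promoter in the table, and among the others Pdgfra and Neu4 each held 1 E-box while Cspg4 and Olig2 held 0. These are mouse sequences, whereas the called change below was in rat, and a match is a description of letters only.

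The median log2 value of an array was 5.92 to 6.06 in mouse. In rat it was 6.67 to 6.75 on the 2 h arrays and 5.82 to 5.87 on those of 6 h, and no level was compared between times. The lowest value of a rat array was 2.57 to 2.73 at 2 h and 0.96 to 1.09 at 6 h. The part of this signal range in differences of fold changes between the times was not tested. Among the rat 2 h arrays, pMCAO replicate 2 lay at 25.9 on the first principal component while the other pMCAO arrays lay at 1.63 and 2.33. Sham replicate 2 lay at -3.17 on it, and the other shams at -13.8 and -12.9. Markers of striatal neurons averaged 7.38 in mouse 6 h sham replicate 2 against 8.27 and 8.54 in the other shams of that group. All 8 members in mouse and 7 in rat averaged above the median gene of their table, Neu4 in rat being the exception (6.25 against 6.86), and the files give no detection calls.

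In rat penumbra at 6 h, Bmp4 fell. It read 5.85, 6.80 and 6.47 on the log2 scale after pMCAO, against 7.88, 7.80 and 7.49 in sham rats. All 3 occluded animals lay below all 3 shams. The log2 fold change was -1.35 ± 0.24 (SE, n = 3 per group, limma adjusted p = 0.00718), a level 0.392 times that of sham with a 95% interval of -1.87 to -0.83 on the log2 scale. Of the 8 members, 1 passed the threshold of adjusted p 0.05 in this comparison, where 6.47% of all genes passed and 3.62% passed as falls. In a piece of tissue, fewer cells of a type and less RNA per cell cannot be told apart. The call was kept whichever of the 6 arrays was left out, with fold changes of -1.56 to -1.09 and limma adjusted p of 0.00353 to 0.0343.

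At 2 h in rats, Bmp4 read 8.24, 7.61 and 7.39 after pMCAO, against 8.41, 8.45 and 8.17 in sham rats. Replicate 1 of the occluded rats overlapped the shams and the other occluded animals lay below them. The log2 fold change of -0.60 ± 0.24 did not pass (limma adjusted p = 0.633), and without pMCAO replicate 2, which stood apart, it was -0.53. The change from 2 h to 6 h, the difference of the fold changes, was -0.75 ± 0.34 and did not pass either (unadjusted p = 0.0462, limma adjusted p = 0.453).

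In every rat group, pMCAO and sham alike, the array with the highest Bmp4 also had the highest mean of the myelinating oligodendrocyte markers. That mean, over 12 genes such as Mbp and Mobp, was 9.36, 9.59 and 9.38 for pMCAO replicates 1, 2 and 3 at 6 h, against 9.57, 9.50 and 9.50 in sham rats. At 2 h it was 10.71, 10.36 and 10.35 after pMCAO, against 10.49, 10.56 and 10.55 in sham rats. The mean of 4 choroid plexus markers was highest on the same rat pMCAO arrays, at 7.19 at 2 h and 5.615 at 6 h. In mice after pMCAO it was likewise highest where Bmp4 was, at 8.56 at 2 h and 8.345 at 6 h. In sham mice at 6 h it was also highest where Bmp4 was, at 7.165, with Bmp4 ranging from 6.67 to 6.73. In sham mice at 2 h it was highest, at 8.89, in replicate 1, whose Bmp4 of 6.78 was tied for the highest. Among sham rats it was highest where Bmp4 was lowest, at 7.88 at 2 h and 5.25 at 6 h. The part of choroid plexus in these values was not tested. The mean over 12 markers of newly formed oligodendrocytes at 6 h was 7.68, 7.72 and 7.74 after pMCAO. In sham rats it was higher, at 7.84, 7.76 and 7.75. Of the 12 fold changes, 10 were below 0, where 53.9% of all genes were. The part of these cells in the fall of Bmp4 was not tested. The mean of 8 neuron markers at 6 h was also lower without overlap. It ranged from 10.75 to 10.81 after pMCAO and from 10.82 to 10.87 in sham rats. With the myelinating mean as a covariate, the fold change of Bmp4 at 6 h was -1.17 and passed (limma adjusted p = 0.00272). With the mean of 8 striatal neuron markers, which ranged from 6.86 to 6.90 after pMCAO and from 6.71 to 6.78 in sham rats at 6 h, it was -1.34 and also passed (limma adjusted p = 0.0269). Neutrophil markers moved as well, their mean over 7 genes ranging from 5.24 to 5.56 after pMCAO and from 4.78 to 4.90 in sham rats at 6 h, and their part in the result was not tested.

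In mice Bmp4 stayed near its sham level. At 6 h it read 6.63, 6.70 and 6.90 after pMCAO, against 6.67, 6.73 and 6.72 in sham mice. The groups overlapped, and the log2 fold change was 0.04 ± 0.08 with a 95% interval of -0.15 to 0.22 (limma adjusted p = 0.839), an interval that does not reach the size measured in rats. At 2 h it read 6.57, 6.78 and 6.50 after pMCAO, against 6.78, 6.78 and 6.74 in sham mice, again overlapping (-0.15 ± 0.08, limma adjusted p = 0.734).

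The species difference itself passed for Bmp4 at 6 h. The mouse fold change minus the rat fold change was 1.39 ± 0.25 on the log2 scale, with a 95% interval of 0.84 to 1.93 and a Benjamini-Hochberg adjusted p = 0.0136 over 14193 symbols measured in both species (limma fits). It was the 1 member of 8 to pass, where 2.28% of matched symbols passed. For the other 7 the 6 h differences ran from -0.16 to 0.17, all with 95% intervals between -0.47 and 0.44. The call was kept without any 1 of the 12 arrays at 6 h (adjusted p = 0.00454 to 0.0485). It was lost with the striatal marker mean as a covariate (1.32, adjusted p = 0.0992), a mean that in mice ranged from 7.14 to 7.32 after pMCAO and from 7.38 to 8.54 in sham at 6 h. At 2 h the difference was 0.45 ± 0.25 and did not pass (adjusted p = 0.998), and 0 of 8 members passed, against 0.0141% of symbols, with 0 of 8 at an unadjusted p under 0.05, against 3.96% of symbols. Mouse and rat arrays carry different probes, and the part of probe design in this difference was not tested. The occluded side also differed, right in mice and left in rats. Side and species therefore cannot be told apart in any species difference given here.

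**Figure D1:**
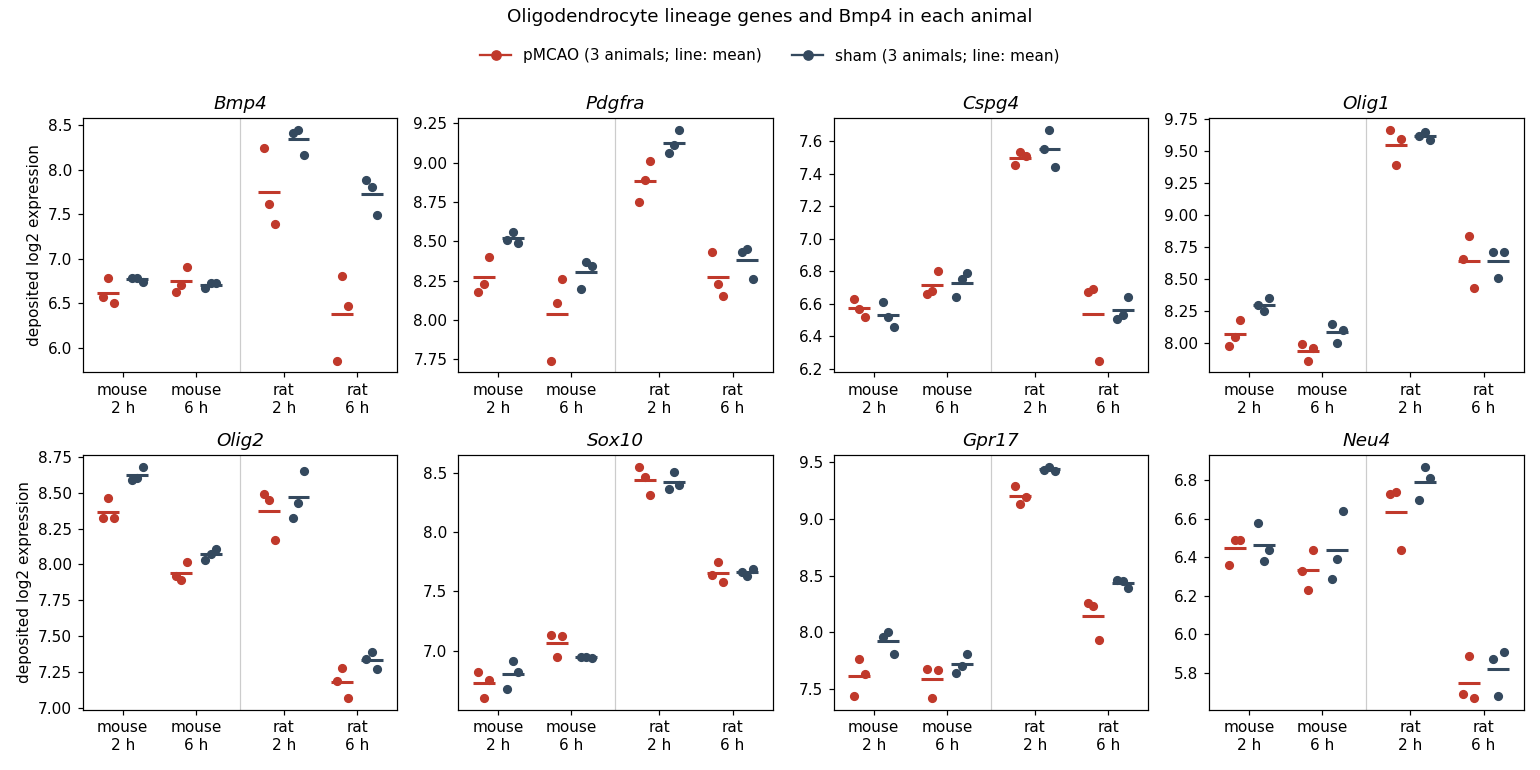
Deposited log2 expression of the 8 members in each animal, by species and time, with pMCAO in red left of sham in dark blue, points for the 3 animals and a line for their mean. Bmp4 in rats at 6 h reads 5.85 to 6.80 after pMCAO and 7.49 to 7.88 in sham, while the mouse groups overlap, and levels at 2 h and 6 h are not on a common scale.

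Among the genes of the committed precursor, Gpr17, a receptor of the maturing precursor, gave lower readings after occlusion in both species without passing the test. In rats at 6 h it read 8.26, 8.23 and 7.93 after pMCAO, against 8.46, 8.45 and 8.39 in sham rats. The arrays did not overlap and the log2 fold change was -0.29 ± 0.09 (unadjusted p = 0.00594, limma adjusted p = 0.0700). It passed with trend and robust moderation of the spread (adjusted p = 0.0309) and when only genes above the median level were tested (adjusted p = 0.0277), and did not pass in the other 15 alternatives. Those include the fit to the 6 arrays of that time alone (adjusted p = 0.193) and each of the 6 arrays left out (adjusted p = 0.0592 to 0.180), with a fold change of -0.19 without pMCAO replicate 3. In rats at 2 h it read 9.29, 9.13 and 9.19 after pMCAO, against 9.43, 9.46 and 9.42 in sham rats, again without overlap (-0.23 ± 0.09, limma adjusted p = 0.598).

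In mice at 2 h Gpr17 read 7.44, 7.76 and 7.63 after pMCAO, against 7.96, 8.00 and 7.81 in sham mice, with every occluded animal below every sham (-0.31 ± 0.10, limma adjusted p = 0.406). At 6 h the mouse groups overlapped, at 7.42 to 7.68 after pMCAO and 7.64 to 7.81 in sham mice (-0.13 ± 0.10, limma adjusted p = 0.481). A further mouse cluster, annotated to both Gpr17 and the adhesion adaptor gene Lims2 and not counted as a member, read 6.99 to 7.05 after pMCAO and 6.99 to 7.15 in sham mice at 2 h (-0.04 ± 0.09, limma adjusted p = 0.955).

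Neu4, the sialidase gene, overlapped between the groups in every comparison. Its log2 fold changes were -0.02 ± 0.10 and -0.11 ± 0.10 in mice at 2 h and 6 h, and -0.16 ± 0.10 and -0.07 ± 0.10 in rats at 2 h and 6 h (limma adjusted p = 0.547 to 0.979). In rats, where its cluster was dim, it read 5.67 to 5.89 after pMCAO and 5.68 to 5.91 in sham at 6 h.

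Pdgfra, the receptor through which platelet-derived growth factor A sustains precursors, read 8.18, 8.23 and 8.40 in mice 2 h after pMCAO, against 8.51, 8.56 and 8.49 in sham mice. These groups did not overlap (-0.25 ± 0.11, unadjusted p = 0.0504, limma adjusted p = 0.648). In rats at 2 h the readings were 8.75, 8.89 and 9.01 after pMCAO, against 9.06, 9.11 and 9.21 in sham rats, also apart (-0.24 ± 0.10, unadjusted p = 0.0257, limma adjusted p = 0.622). At 6 h the groups overlapped in both species, with fold changes of -0.27 ± 0.11 in mice and -0.11 ± 0.10 in rats (limma adjusted p = 0.187 and 0.554). Pdgfra is also expressed by fibroblasts of the meninges and vessels. Of 8 fibroblast markers, 0 were called by limma in any of the 4 comparisons, where 0.0661% to 7.43% of all genes were. At an unadjusted p under 0.05 there was 1, in mice at 6 h, against 23.3% of all genes there. These markers averaged 6.15 to 6.48 after pMCAO and 6.34 to 6.56 in sham mice at 2 h. In rats at 2 h they averaged 7.24 to 7.26 after pMCAO and 7.30 to 7.39 in sham, without overlap, and their part in these values was not tested.

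Cspg4, which encodes NG2 and is also made by pericytes, stayed near its sham level. Its fold changes were 0.04 ± 0.07 and -0.01 ± 0.07 in mice at 2 h and 6 h, and -0.06 ± 0.11 and -0.02 ± 0.11 in rats at 2 h and 6 h, with overlapping arrays throughout (limma adjusted p = 0.927 to 0.950). Of 8 pericyte markers, 0 were called by limma in any of the 4 comparisons, with 1 at an unadjusted p under 0.05 in rats at 6 h and 0 in the others. Of all genes, 0.0661% to 7.43% were called in these comparisons, and 7.08% to 23.3% were at an unadjusted p under 0.05.

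The transcription factor genes Olig1, Olig2 and Sox10 did not pass in any comparison. Olig2, needed to specify the lineage, read 8.32, 8.46 and 8.32 in mice 2 h after pMCAO, against 8.59, 8.60 and 8.68 in sham mice. Its fold change of -0.26 ± 0.06 had the lowest unadjusted p of the members in that comparison (0.00168), and did not pass (limma adjusted p = 0.229). Olig1, its neighbour on mouse chromosome 16 with 0 protein-coding genes between them in RefSeq, read 7.98, 8.05 and 8.18 after pMCAO, against 8.30, 8.25 and 8.35 in sham mice (-0.23 ± 0.07, limma adjusted p = 0.388).

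Both Olig genes also lay below sham without overlap in mice at 6 h. Olig2 read 7.89 to 8.02 after pMCAO and 8.03 to 8.11 in sham mice (-0.13 ± 0.06, limma adjusted p = 0.255), and Olig1 7.86 to 7.99 after pMCAO and 8.00 to 8.15 in sham mice (-0.15 ± 0.07, limma adjusted p = 0.235). In rats both overlapped with sham at either time, with fold changes of -0.10 ± 0.11 and -0.15 ± 0.11 for Olig2 and -0.07 ± 0.11 and 0.00 ± 0.11 for Olig1 at 2 h and 6 h.

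Sox10, which is kept on through the whole lineage up to the myelinating cell, overlapped with sham in every comparison. Its fold changes were -0.08 ± 0.08 and 0.12 ± 0.08 in mice at 2 h and 6 h, and 0.02 ± 0.08 and 0.00 ± 0.08 in rats (limma adjusted p = 0.402 to 0.989).

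**Figure D2:**
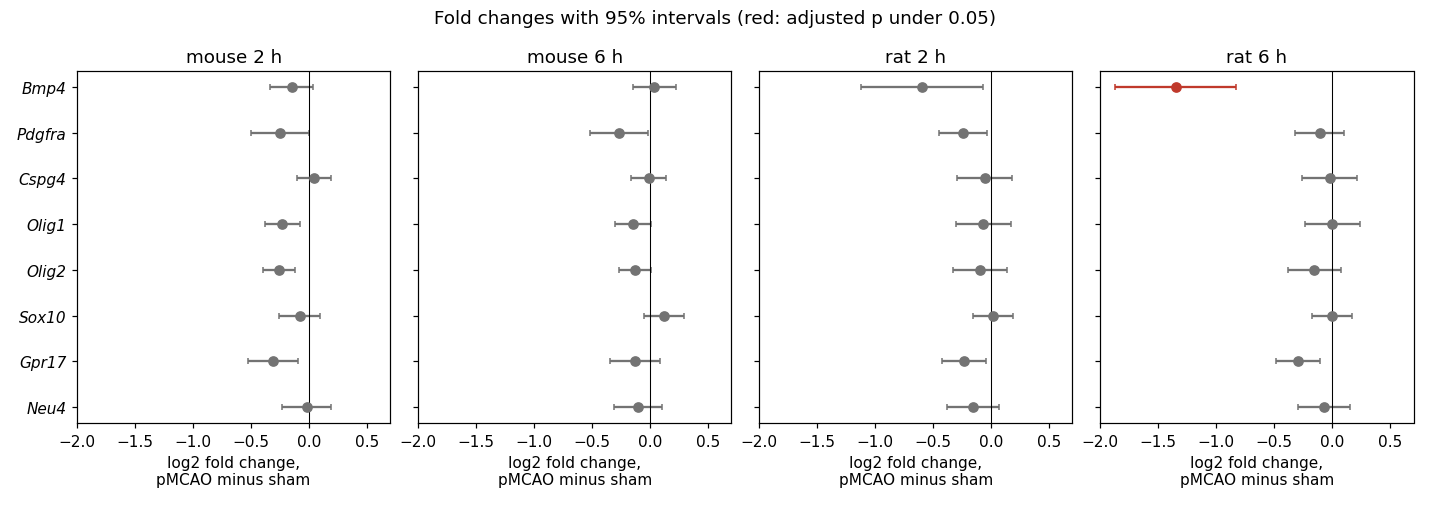
Log2 fold change of each member, pMCAO minus sham, with its 95% interval from limma (n = 3 per group) in the 4 comparisons, drawn red where the adjusted p was under 0.05. Bmp4 in rats at 6 h, at -1.35, is drawn red, and the 7 other members in that panel lie between -0.29 and 0.00.

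Counted over the members, 0 of 8 passed in mice at 2 h (0.298% of all genes passed), 0 of 8 in mice at 6 h (7.43%) and 0 of 8 in rats at 2 h (0.0661%) by limma with Benjamini-Hochberg adjustment. At an unadjusted p under 0.05 the counts were 3, 1 and 3, and 2 in rats at 6 h, where 7.71%, 23.3%, 7.08% and 22.1% of all genes were under it. Members with every occluded animal below every sham numbered 4 in mice at 2 h, where 8.39% of genes did so, and 2 in mice at 6 h, where 14.6% did. They numbered 2 in rats at 2 h (7.57% of genes) and 2 in rats at 6 h (14.8%). The median fold change of the 8 members was -0.19 and -0.12 in mice and -0.13 and -0.09 in rats at 2 h and 6 h, against medians of -0.02 to 0.00 over all genes. No member passed for a change of the occlusion effect between the times (0 of 8 in mouse, where 0.171% of genes passed, and 0 of 8 in rat, where 0.231% did). At an unadjusted p under 0.05 these counts were 0 in mouse and 1 in rat, Bmp4, where 14.0% of mouse genes and 10.8% of rat genes were under it.

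Further genes of the lineage were read from lists. Of all genes, 7.71% in mice and 7.08% in rats at 2 h were at an unadjusted p under 0.05, and 23.3% and 22.1% at 6 h. Of 15 measured further precursor genes, 0 passed in either species at 2 h by limma (3 in mice and 2 in rats at an unadjusted p under 0.05). At 6 h, where 4.23% of all genes fell and 3.21% rose in mice and 3.62% fell and 2.85% rose in rats, 2 of the 15 fell in mice, Sox6 (-0.35 ± 0.06, limma adjusted p = 0.00731) and the matrix gene Tnr (-0.29 ± 0.07, limma adjusted p = 0.0293), and 1 fell in rats, Sox6 again (-0.47 ± 0.09, limma adjusted p = 0.00911). Sox6 encodes a transcription factor that holds precursors undifferentiated and is also expressed by cortical interneurons. It read 6.91, 6.93 and 6.85 after pMCAO and 7.23, 7.25 and 7.25 in sham mice at 6 h, and 7.30, 7.45 and 7.17 after pMCAO against 7.84, 7.85 and 7.63 in sham rats. The Sox6 calls were kept whichever array was left out, whereas leaving out any 1 array except pMCAO replicate 2 ended the call of Tnr (adjusted p = 0.0617 to 0.0881). With the striatal marker mean as a covariate, Sox6 was still called in rats (-0.44, adjusted p = 0.0396). In mice neither Sox6 nor Tnr was called with it, at fold changes of -0.38 and -0.39 (adjusted p = 0.101 and 0.119). The median of the list was -0.09 in mice at both times and -0.05 in rats at both times.

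Of the genes of newly formed oligodendrocytes, 0 of 11 passed in mice at either time and 0 of 12 in rats at 2 h by limma, with 1 in mice at each time and 3 in rats at an unadjusted p under 0.05. In rats at 6 h 1 of 12 fell, Zfp488 (-0.44 ± 0.09, limma adjusted p = 0.0129), a transcription factor gene of oligodendrocyte differentiation, and 1 rose, Cnksr3 (0.57 ± 0.11, limma adjusted p = 0.0130), a scaffold protein gene. Zfp488 read 6.74, 6.86 and 6.97 after pMCAO against 7.33, 7.23 and 7.33 in sham rats. Zfp488 lost the call without sham replicate 1 (adjusted p = 0.0507), and Cnksr3 without sham replicate 2 (adjusted p = 0.0508). Of 12 measured genes of myelinating oligodendrocytes, 0 passed in mice at 2 h or in rats at either time (0, 1 and 2 at an unadjusted p under 0.05). In mice at 6 h 9 of the 12 had fold changes above 0, with a median of 0.16, where 53.4% of all genes were below 0. At an unadjusted p under 0.05 there were 6 of the 12, against 23.3% of all genes. The 1 that passed there had the opposite sign to that median, as Aspa, which encodes aspartoacylase, fell (-0.28 ± 0.07, limma adjusted p = 0.0353) and was no longer called when any 1 array except pMCAO replicate 1 was left out (adjusted p = 0.0505 to 0.120).

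**Figure D3:**
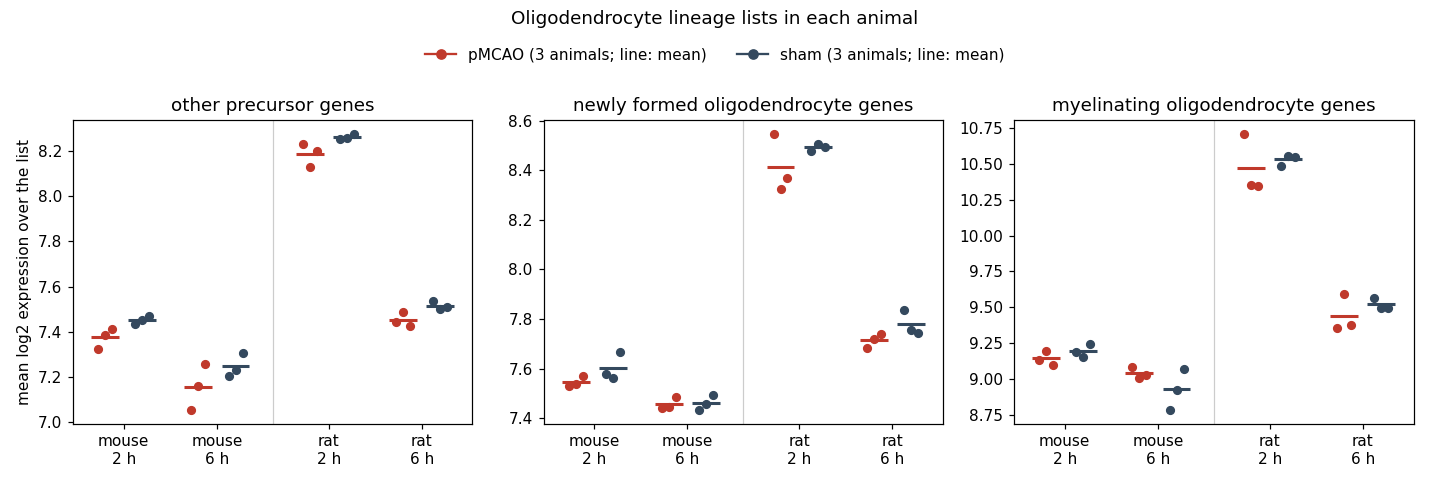
Mean log2 expression over the measured genes of 3 lineage lists in each animal, with pMCAO in red left of sham in dark blue and a line for the mean of 3 animals. In rats at 6 h the further precursor list lies at 7.42 to 7.49 after pMCAO and 7.50 to 7.54 in sham, the newly formed list at 7.68 to 7.74 after pMCAO and 7.75 to 7.84 in sham, and the myelinating list overlaps. The further precursor list also lies apart at 2 h. It reads 7.32 to 7.41 after pMCAO and 7.44 to 7.47 in sham mice, and 8.13 to 8.23 after pMCAO and 8.25 to 8.27 in sham rats. In mice at 6 h it overlaps.

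Of the 35 measured BMP pathway genes other than Bmp4, 3 passed in mice at 6 h, all rising, where 7.43% of all genes passed, and 6 passed in rats, 3 rising and 3 falling, where 6.47% did. At an unadjusted p under 0.05 there were 11 of 35 in each species, against 23.3% of all genes in mice and 22.1% in rats. Among the other BMP ligand genes, 0 of 8 passed in mice and 0 of 7 in rats by limma (1 and 2 at an unadjusted p under 0.05), and in rats Bmp2 and Bmp3 had fold changes above 0 that did not pass (0.35 ± 0.11 and 0.43 ± 0.15, limma adjusted p = 0.0947 and 0.120). Of the 7 ligand genes in rats, 4 had fold changes below 0 and 3 above, with a median of -0.01. Among 6 receptor genes, 2 fell in rats at 6 h, the type I receptor Bmpr1a (-0.32 ± 0.07, limma adjusted p = 0.0147) and the type II receptor Acvr2a (-0.44 ± 0.08, limma adjusted p = 0.0108), and 0 passed in mice (3 at an unadjusted p under 0.05). Bmpr1a read 7.96, 8.05 and 8.07 after pMCAO against 8.35, 8.34 and 8.36 in sham rats. It lost the call without sham replicate 1 (adjusted p = 0.0514). The species difference passed for Bmpr1a (0.43 ± 0.10, adjusted p = 0.0189) and did not pass with the striatal or the myelinating marker mean as a covariate, at differences of 0.39 and 0.42 (adjusted p = 0.231 and 0.0844).

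Smad1, a transducer of BMP signals, rose at 6 h in both species. In rats it read 8.55, 8.50 and 8.49 after pMCAO, against 7.69, 7.88 and 7.91 in sham rats (0.69 ± 0.08, limma adjusted p = 0.000910), a call kept whichever array was left out. In mice it read 7.17, 7.35 and 7.16 after pMCAO, against 6.94, 6.99 and 6.79 in sham mice (0.32 ± 0.08, limma adjusted p = 0.0342), a call lost when pMCAO replicate 2, pMCAO replicate 3, sham replicate 1 or sham replicate 3 was left out (adjusted p = 0.0510 to 0.120). The other 3 SMAD transducers did not pass in either species. The effect on Smad1 in rats was larger at 6 h than at 2 h (difference 0.66 ± 0.12, limma adjusted p = 0.0488), a call that was kept without 6 h pMCAO replicate 2 and lost without any of the other 11 arrays in turn (adjusted p = 0.0706 to 0.151). For Smad9, another transducer of BMP signals, the species difference passed at 6 h (0.54 ± 0.13, adjusted p = 0.0291), and it did not pass without 6 of the 12 arrays in turn (adjusted p = 0.0546 to 0.102). These were mouse pMCAO replicate 3, mouse sham replicate 1, rat pMCAO replicate 2 and the 3 rat shams. With the striatal marker mean as a covariate the Smad9 difference was 0.46 and did not pass (adjusted p = 0.267). With the myelinating mean it was 0.59 and passed (adjusted p = 0.0431). The time difference of Smad1 in rats passed with neither mean, at 0.75 and 0.66 (limma adjusted p = 0.225 and 0.0659).

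The inhibitory SMAD gene Smad7 and the SMAD ubiquitin ligase gene Smurf1 rose at 6 h in both species. Smad7 changed by 0.27 ± 0.07 in mice and 0.45 ± 0.10 in rats (limma adjusted p = 0.0499 and 0.0181), and Smurf1 by 0.29 ± 0.06 in mice and 0.45 ± 0.09 in rats (limma adjusted p = 0.0168 and 0.0127). Both also act on other TGF-β family signals. Chrd, which encodes the secreted BMP antagonist chordin, fell in rats (-0.34 ± 0.09, limma adjusted p = 0.0474). These 3 calls were those of the 11 measured inhibitors in rats, and Smad7 and Smurf1 those of 11 in mice. Leaving out any 1 array except sham replicate 1 ended the call of Smad7 in mice (adjusted p = 0.0715 to 0.151), as did leaving out pMCAO replicate 3 or sham replicates 1 or 3 in rats (adjusted p = 0.0529 to 0.0590). Smurf1 lost its call in mice without sham replicate 3 (adjusted p = 0.0653), and Chrd in rats when any 1 array except pMCAO replicate 2 was left out (adjusted p = 0.0754 to 0.147).

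BMP target genes were not called at 6 h, with 0 of 6 in mice and 0 of 7 in rats by limma (2 and 1 at an unadjusted p under 0.05). In rats Id3, an inhibitor of helix-loop-helix factors, read 6.29, 5.90 and 5.68 after pMCAO, against 6.53, 6.42 and 6.22 in sham rats (-0.43 ± 0.15, unadjusted p = 0.0116, limma adjusted p = 0.10). In mice Id2 read 9.97, 10.29 and 10.23 after pMCAO, against 10.37, 10.44 and 10.53 in sham mice (-0.28 ± 0.09, unadjusted p = 0.00719, limma adjusted p = 0.0718). Id3 in rats and Id2 in mice had the lowest fold change of the list in that species. The list medians were -0.19 in mice and -0.08 in rats at 6 h. At 2 h, 0 genes of the BMP ligand, receptor, SMAD, inhibitor and target lists passed in either species by limma. At an unadjusted p under 0.05 there were 5 of 35 in mice and 3 of 35 in rats, against 7.71% and 7.08% of all genes.

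Pdgfa, the ligand of the receptor encoded by Pdgfra, rose at 6 h in both species. It read 7.75, 7.63 and 7.89 after pMCAO against 7.32, 7.31 and 7.19 in sham mice (0.48 ± 0.08, limma adjusted p = 0.00768). In rats it read 8.27, 8.36 and 8.56 after pMCAO against 7.99, 8.03 and 8.03 in sham rats (0.38 ± 0.08, limma adjusted p = 0.0143). The mouse call was kept whichever array was left out, and the rat call was lost without sham replicate 1 (adjusted p = 0.0558). Of the 5 measured PDGF genes other than Pdgfra, 2 rose in mice at 6 h, where 3.21% of all genes rose. In rats at 6 h 1 of them rose, where 2.85% of all genes did. At an unadjusted p under 0.05 by limma there were 2 of the 5 in mice, against 23.3% of all genes. Pdgfb, the ligand that recruits pericytes, rose in mice at 6 h (0.67 ± 0.13, limma adjusted p = 0.0130, lost without sham replicate 3 at 0.0535) and did not pass in rats (0.17 ± 0.13, unadjusted p = 0.223). The other 3 genes in rats at 6 h had fold changes below 0 that did not pass, with an unadjusted p under 0.05 each. These were the receptor gene Pdgfrb (-0.24 ± 0.07, limma adjusted p = 0.0664) and the ligand genes Pdgfc and Pdgfd (-0.29 ± 0.12 and -0.36 ± 0.16, limma adjusted p = 0.159 and 0.215). Thus 4 of 5 were at an unadjusted p under 0.05, against 22.1% of all genes, and the list median was -0.24.

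The striatal marker mean moved with the groups at 6 h in both species, in opposite directions, and Drd2 and Tac1, 2 of its 7 genes in mice, fell there (-1.64 and -0.75, limma adjusted p = 0.0355 and 0.0335). With it as a covariate the number of all genes called at 6 h was 65 in place of 1649 in mice and 606 in place of 1175 in rats. In mice 0 of the pathway calls were kept (adjusted p = 0.143 to 0.517), while the fold changes were 0.39 for Smad7, 0.29 for Smurf1, 0.72 for Pdgfb, 0.39 for Pdgfa and 0.17 for Smad1. In rats Smad1, Bmpr1a and Acvr2a were still called (adjusted p = 0.00290, 0.0420 and 0.0473), and Smad7, Smurf1, Chrd and Pdgfa were not (adjusted p = 0.0504 to 0.0854), with fold changes of 0.45, 0.39, -0.37 and 0.38.

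**Figure D4:**
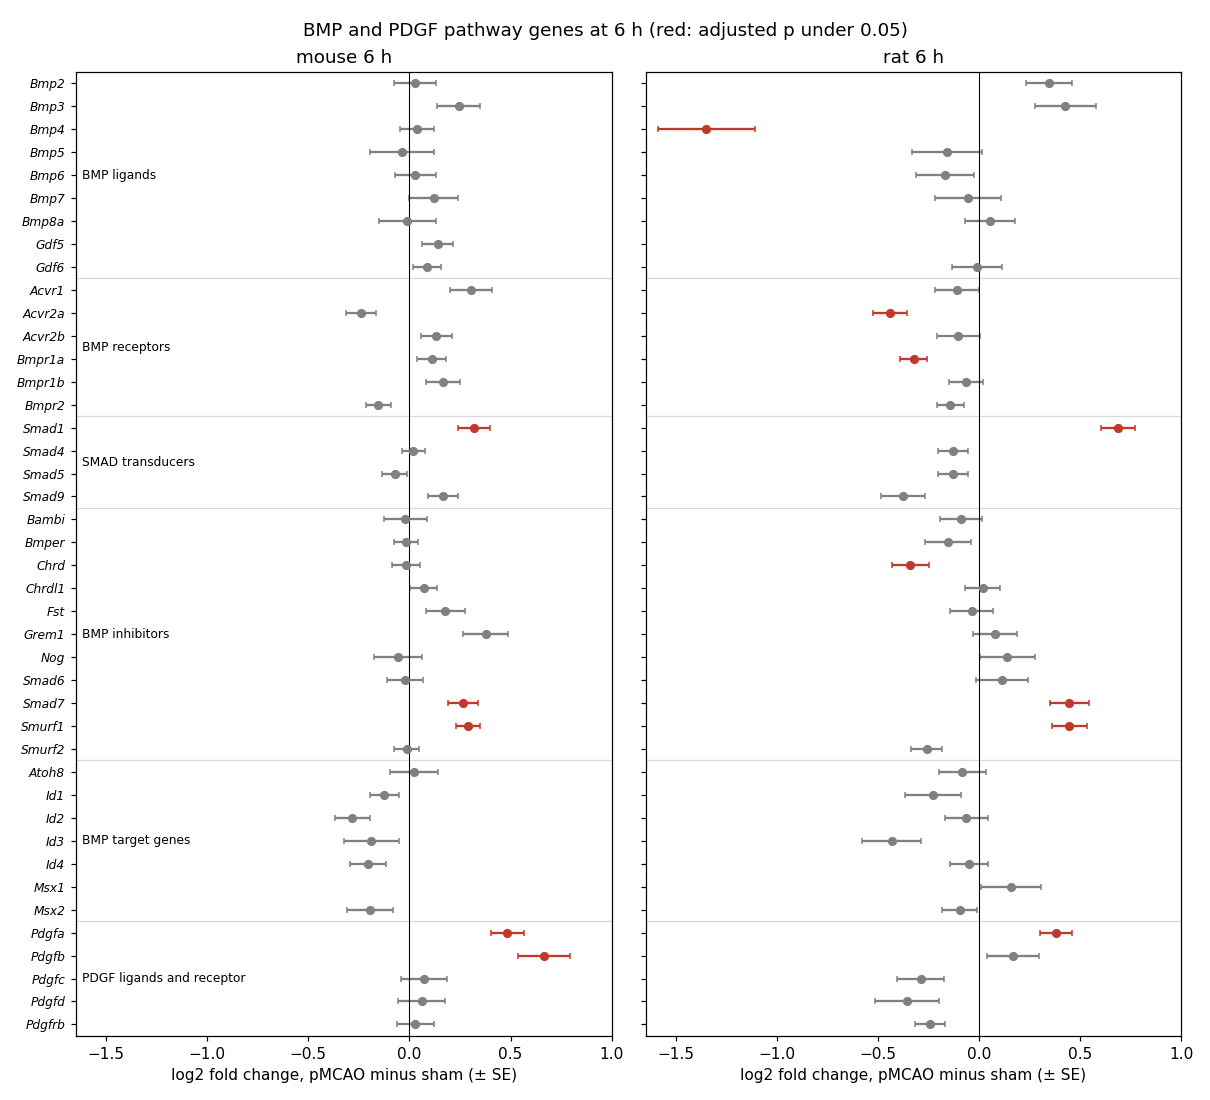
Log2 fold change ± SE at 6 h, pMCAO minus sham, for the BMP and PDGF pathway genes by role, in mouse (left) and rat (right), with n = 3 per group and red where the limma adjusted p was under 0.05. Smad1, Smad7, Smurf1 and Pdgfa are red on the positive side in both panels, while Bmp4, Bmpr1a, Acvr2a and Chrd are red on the negative side in the rat panel.

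Across the 12 rat arrays, after the mean of each time was subtracted, the genes most like Bmp4 by Pearson's r were Ppp3cc (0.96), a calcineurin subunit gene, Rad21 (0.95), a cohesin subunit gene, Map6d1 (0.94), Mblac2 (0.94) and Zfp488 (0.93). Of these, Ppp3cc, Map6d1, Mblac2 and Zfp488 fell at 6 h in rats (-0.41, -0.31, -0.50 and -0.44, limma adjusted p = 0.0129 to 0.0341), so the surgery groups enter these correlations. Among the members Gpr17 was the most like Bmp4 in rats (r = 0.75, rank 756 of the genes tested) and Olig2 in mice (r = 0.66, rank 415). In mice the genes most like Bmp4 were Gen1 (0.90), Szrd1 (0.89), Tgfbr3 (0.88), a TGF-β co-receptor gene, Kdelr2 (0.86) and Stt3a (0.85), none of which was called at 2 h or 6 h, and 0 genes were among the 5 in both species. With each group's mean removed, the median r over the 28 pairs of members was 0.25 in mouse and 0.34 in rat, with a range of -0.43 to 0.78 in mouse and -0.62 to 0.88 in rat. In that form Gpr17 and Bmp4 had r = 0.12 in rats, where Sox10 was the member most like Bmp4 (0.58). Olig2 and Bmp4 had r = 0.78 in mice. The arrays of a species share their processing, and no p is given for these values.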

How the data were processed

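RNA was measured on whole-transcript arrays, 1 animal each. Per the labels, its integrity number was above 7.5 and the WT PLUS kit was used. The authors deposited log2 expression values per transcript cluster, to 2 decimals, as 1 table per species. The submitters' processing notes name oligo and limma. For background correction, normalization and genome build no statement was given in the sources used here. Groups and replicate numbers came from sample titles. A separate time label reads 2 h for all 24 samples and was not used. Clusters with 1 platform symbol were kept, the brightest where a symbol had several. The 12 arrays of a species entered one limma model of 4 group means (limma 3.58.1, R 4.3.3, default eBayes). Two-sided p-values were adjusted by Benjamini-Hochberg over all genes tested. The species comparison subtracted the rat from the mouse log2 fold change, with Welch-Satterthwaite degrees of freedom. Exact permutation of 3 against 3 animals gives no p below 0.1. The limma test was tested on simulated data. The species test was simulated with the same fixed standard error in both species, so that run does not cover estimated or unequal standard errors. Members and lists were chosen with earlier results of these data known. The naming rule took all members, up to 2 called genes each way per list and comparison, and 5 genes most like Bmp4. Uncalled genes of the pathway lists (Bmp2, Bmp3, Id2, Id3, Pdgfrb, Pdgfc and Pdgfd) were named outside that rule. Called genes of lists for other cell types were used only as values beside a result. Alternatives covered the arrays fitted, eBayes settings, array weights, scaling, genes tested, cluster choice, pairing, marker covariates and each array left out. Same-numbered pMCAO and sham animals are separate animals, and their deviations correlated at -0.12 to 0.33 over 12 pairs (1 above 0.1), so numbers were not treated as pairs. The 1 pair above 0.1 was replicate 2 in rats at 2 h.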

Additional observations from a re-analysis of the deposited data

Results flagged for a closer look

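The occlusion effect on Bmp4 at 6 h differed between the species by a test of the difference itself. The mouse log2 fold change was 0.04 ± 0.08 and the rat one -1.35 ± 0.24, a difference of 1.39 ± 0.25 (adjusted p = 0.0136 over 14193 symbols, limma fits, n = 3 per group). All 3 occluded rats lay below all sham rats, while the mouse groups overlapped. The level of Bmp4 averaged 6.71 over the mouse arrays and 7.55 over the rat arrays, against median genes of 6.36 and 6.86, and the part of probe design or signal range in the difference was not tested. The right artery was occluded in mice and the left in rats, so side and species cannot be told apart. No outlier test was applied to groups of 3 animals.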

How the results depend on the processing

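Bmp4 in rats at 6 h passed in all 17 alternatives run, 6 of which left out an array, with log2 fold changes of -1.56 to -1.09 and limma adjusted p of 0.00220 to 0.0343. The count of members called in rats at 6 h was 2 in place of 1 with trend and robust eBayes and with only genes above the median level tested, the second being Gpr17. The count with a species difference at 6 h was 0 in place of 1 with the striatal marker mean as a covariate, where 42 in place of 323 symbols passed in all, and the cause was not tested. The other counts of members were as in the report under every alternative, 0 in each, and no called value changed sign, whereas uncalled values near 0 did, such as Bmp4 in mice at 6 h (-0.04 to 0.09). With the replicate number as a replicate block within each time, the count in rats at 6 h was still 1 (Bmp4 adjusted p = 0.0161), and of 109 values 14, all of list genes, lost a call. The highest correlation of an occluded animal's deviation was with its own number in 4 of 12. Of 37 calls among list genes, 35 were kept after quantile normalization or median centring, 36 with a gene's clusters averaged, 34 with trend and robust eBayes, 25 with array weights, 23 with the block, 21 with the myelinating marker covariate, 18 over all clusters and 7 with the striatal covariate. Of 36 such calls with a value from the 6 arrays alone, 4 were kept. With 3 arrays per group, the standard errors of the fold changes within a species and time were 0.06 to 0.11 for the members other than Bmp4, against 0.24 for Bmp4 in rat.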
